A study of Bos taurus with 12 samples.

Results

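The genes described here encode P-type and V-type ATPases, membrane pumps that spend ATP to move ions, polyamines or lipids across a membrane. They were chosen by gene symbol (ATP1A, ATP1B, ATP2A to ATP2C, ATP4A, ATP6V, ATP6AP, and ATP7 to ATP13, without the ATP5 genes of the mitochondrial synthase). No measured value was used to admit a gene, although the list was chosen with earlier results of these data known. The genes are 35 of the 9155 that a probe set of the array names alone. Expression was measured in papillae of the ventral rumen sac of 4 Holstein dairy cows. Each cow was sampled while fed high forage (week 0) and again after a change to a grain challenge, at its week 1 and week 3, which gives 4 arrays of the same 4 animals per week. No cow kept on forage is among the samples used here, so diet and calendar week cannot be told apart, and the labels give no age for the cows.

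Rumen papillae are leaf-like folds of a stratified squamous epithelium that absorb the short-chain fatty acids, sodium and other ions set free by fermentation. The Na/K-ATPase, made of a catalytic alpha and a glycosylated beta subunit, sits in the basal and lateral membranes of this epithelium and drives sodium uptake, while the V-ATPase acidifies lysosomes and endosomes and pumps protons outward in some epithelia. Calcium pumps of the endoplasmic reticulum (SERCA), the plasma membrane (PMCA) and the Golgi (SPCA) keep cytosolic calcium low. P4-type flippases hold phosphatidylserine and related lipids in the inner leaflet, and the P5 pumps ATP13A2 and ATP13A3 move polyamines out of lysosomes and endosomes.

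The 35 genes were represented by 54 probe sets, and each gene is described by its probe set of largest standard deviation over the 12 arrays. They comprised 4 genes of the Na/K-ATPase beta subunit family by symbol (ATP1B), 2 SERCA, 3 PMCA and 1 SPCA pumps and the gastric proton pump ATP4A. The others were 3 P5 pumps, the P4 pumps ATP8A1 and ATP9B, and 19 genes of the V-ATPase. Of the last, 9 belong to the cytosolic V1 sector, which splits ATP, 8 to the membrane-bound V0 sector, which carries the protons, and 2 are accessory proteins. The alpha subunits, the copper pumps and the other flippases were not analysed here. The log2 values are relative: each probe set was set to a median of 0 across the arrays, so they give differences between arrays and no absolute level. For the same reason the tissue could not be checked by the level of its markers, and no gene's level is set against another's.

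**Figure D1:**
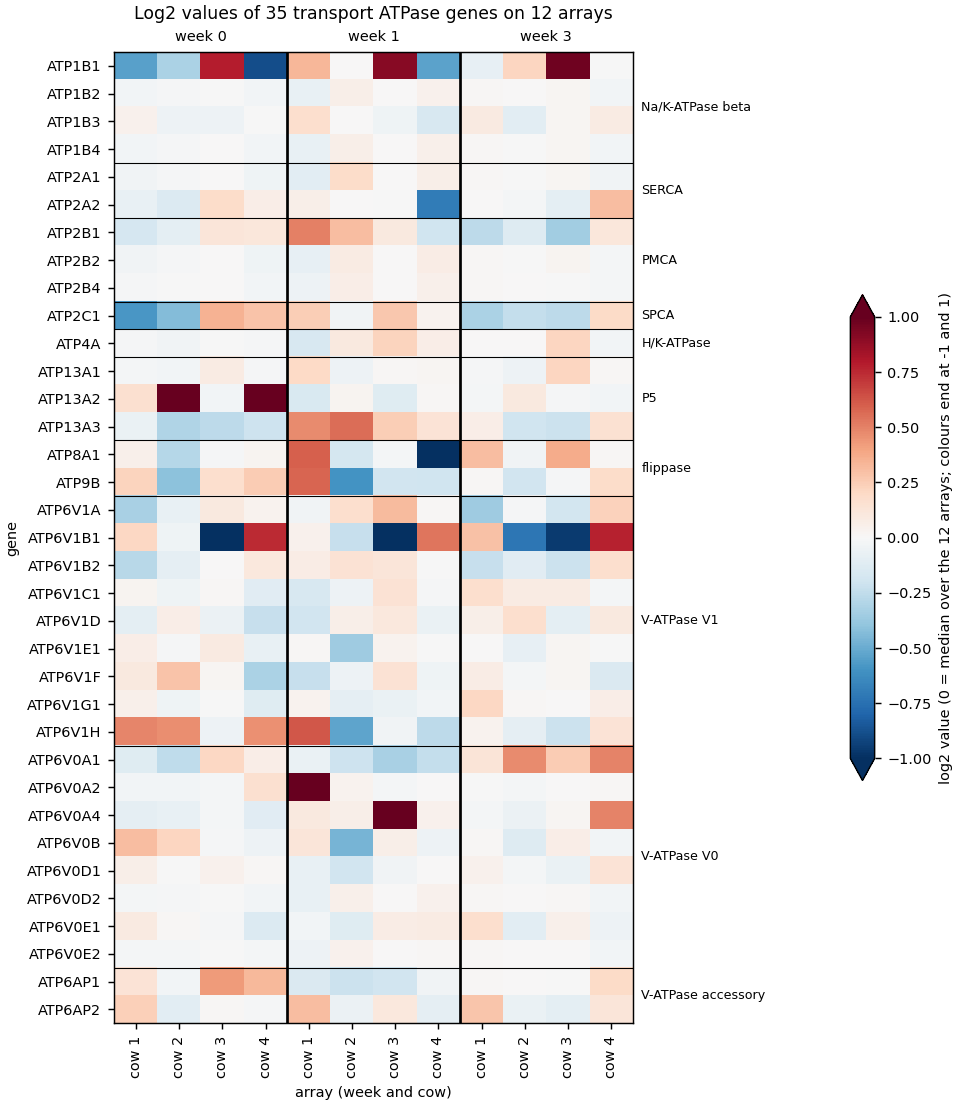
Log2 value of each of the 35 genes (rows, by pump family) on each of the 12 arrays (columns, by week and cow), with 0 the median of the gene and colours ending at -1 and 1. ATP6V1B1 stays on the same side of 0 within each cow, and ATP1B1 is highest in cow 3 at every week. On average ATP13A3 is highest at week 1 and ATP6V0A1 at week 3.

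No transport ATPase gene passed the test in any comparison. With limma, a linear model fitted over all 24016 probe sets with a mean per week, 0 of the 35 had an adjusted p under 0.05 in week 1 against week 0, where 0% of all probe sets did, in week 3 against week 0 (also 0%), in week 3 against week 1 (also 0%), or in the F test of the 3 weeks together (also 0%). The lowest adjusted p among the genes was 0.683, 0.901 and 0.548 in the 3 comparisons in that order, and 0.296, 0.548 and 0.286 with the cow as a block, a fit in which 0 of the 35 passed as well (0.00833% of all probe sets in week 1 against week 0, 0% in the other comparisons). Weighting the arrays by their estimated quality changed this for week 1 against week 0. It gave 10 genes an adjusted p under 0.05, where 41.5% of all probe sets passed, and it gave the week 1 array of cow 1 a weight of 0.0618 against 0.421 to 3.63 for the others. In the F test 4 genes passed with these weights, where 25.4% of all probe sets did, and 0 passed in week 3 against week 0 (0.0291%) or week 3 against week 1 (0.404%). What follows describes the values, and each p without adjustment is given as a description.

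At an unadjusted p under 0.05, 3 of the 35 genes differed between week 1 and week 0 (8.57%), against 6.61% of all 9155 genes. ATP13A3 was higher at week 1, as were 3.76% of all genes at that p, and ATP13A2 and ATP6AP1 were lower, as were 2.85%. With the cow as a block ATP1B1 made it 4, against 10.2%. For week 3 against week 0 the count was 2 (5.71%), against 5.02% of all genes, with ATP6V0A1 higher (3.13%) and ATP13A2 lower (1.89%). With the block it was 4, against 8.02%, with ATP1B1 and ATP6V1G1 added. Between week 3 and week 1 it was 3 (8.57%), against 6.84%, with ATP6V0A1 higher (3.68%) and ATP13A3 and ATP2B1 lower (3.16%). With the block it was 4, against 10.6%, since ATP2B1 dropped out and ATP6AP1 and ATP6V1G1 came in. The F test of the 3 weeks gave 4 (11.4%), ATP13A2, ATP13A3, ATP6AP1 and ATP6V0A1, against 6.9%. These shares lie near those of all genes. The median difference over the 35 genes was 0.021, 0.015 and 0.011 on the log2 scale for week 1 against week 0, week 3 against week 0 and week 3 against week 1, beside 0.024, 0.017 and -0.0078 over all genes.

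The sign of the difference over the 4 cows gave a similar picture. In week 1 against week 0, 7 of the 35 genes had the same sign in all 4 cows (20.0%), against 12.8% of all genes. ATP13A3, ATP1B1 and ATP6V0A4 were higher in each cow, as were 7.48% of all genes, and ATP13A2, ATP6AP1, ATP6V0D1 and ATP6V1B1 were lower, as were 5.29%. In week 3 against week 0 the count was 11 (31.4%), against 34.4% of all genes, with 9 higher (28.1%) and 2 lower (6.34%), the last being ATP2B1 and ATP6V1H. ATP2B1 differed by only -0.002 in cow 4, and its other probe sets gave mean differences of 0.04 and 0.17. In week 3 against week 1 the count was 3 (8.57%), against 13%, and ATP6AP1, ATP6V0A1 and ATP6V1G1 were higher (7.35%) and none lower (5.68%). Whatever their size, 22, 21 and 18 of the 35 differences lay above 0 in the 3 comparisons, against 63.3%, 64.5% and 40.8% of those of all genes. Of the 16 genes outside the V-ATPase, the ATP1B genes included, 12 were higher at week 1 and 12 at week 3 against week 0, and 6 at week 3 against week 1. Such counts depend on the scaling, since quantile normalization turned the sign of 8, 6 and 7 of the 35 differences and centring the array medians that of 7, 4 and 6, ATP6V0E2 among them in each case.

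The P5 pumps held the highest and the lowest of the 35 differences between week 1 and week 0. ATP13A3, an endosomal polyamine transporter, had log2 values of -0.06, -0.30, -0.26 and -0.20 in cows 1 to 4 at week 0, 0.48, 0.56, 0.24 and 0.13 at week 1, and 0.06, -0.20, -0.22 and 0.16 at week 3. Each array of week 1 lay above each array of week 0, and week 3 overlapped both. Weeks that do not overlap were found for 3 of the 35 genes in this comparison, against 3.11% of all genes, and the others were ATP6AP1 and ATP6V0A4. For week 3 against week 0 the count was 0, against 4.05%. ATP13A3 averaged 0.35 ± 0.20 at week 1 and -0.21 ± 0.11 at week 0 (SD, n = 4 each), a difference of 0.56 ± 0.11 (SE) or 1.48-fold, and it was higher in all 4 cows, by 0.34 to 0.86. Its adjusted p in limma was 0.683 (unadjusted p = 0.00049). Over the alternative settings the difference stayed between 0.32 and 0.64, with the lowest value for the mean of its probe sets, and the other probe set, which has an SD of 0.10, gave 0.09.

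Week 3 minus week 1 of ATP13A3 was -0.41, -0.76, -0.46 and 0.02 in cows 1 to 4. The mean difference was -0.40 ± 0.11 (SE; limma, adjusted p = 0.672), and that of week 3 minus week 0 was 0.16 ± 0.11, higher in all 4 cows by 0.05 to 0.36. In cow 4 alone the week 3 value was as high as at week 1. Weeks took up 72.4% of the sum of squares of this gene and cows 9.27%.

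ATP13A2, a lysosomal polyamine exporter known from an inherited form of parkinsonism in humans, rested on 2 arrays. Its log2 values at week 0 were 0.16, 1.61, -0.03 and 1.55 in cows 1 to 4, those at week 1 were -0.16, 0.03, -0.12 and 0.01, and those at week 3 were -0.02, 0.10, -0.01 and -0.03. Cows 2 and 4 stood high on forage, and the other 10 arrays lay between -0.16 and 0.16. The difference of week 1 minus week 0 was -0.88 ± 0.34 (SE; limma, adjusted p = 0.763) and that of week 3 minus week 0 was -0.81 ± 0.34 (adjusted p = 0.901). Week 1 minus week 0 was -0.32, -1.58, -0.10 and -1.54 in cows 1 to 4. Without the week 0 array of cow 2 the first difference was -0.62, and without that of cow 3 it was -1.17. The gene has 3 probe sets, and the other 2 gave -0.08 and -0.02 in that comparison and 0.13 and -0.02 for week 3 minus week 0, so this pattern was seen with 1 probe set. ATP13A1, which removes misplaced membrane helices from the endoplasmic reticulum, differed by 0.04 and 0.03 in week 1 and week 3 against week 0.

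**Figure D2:**
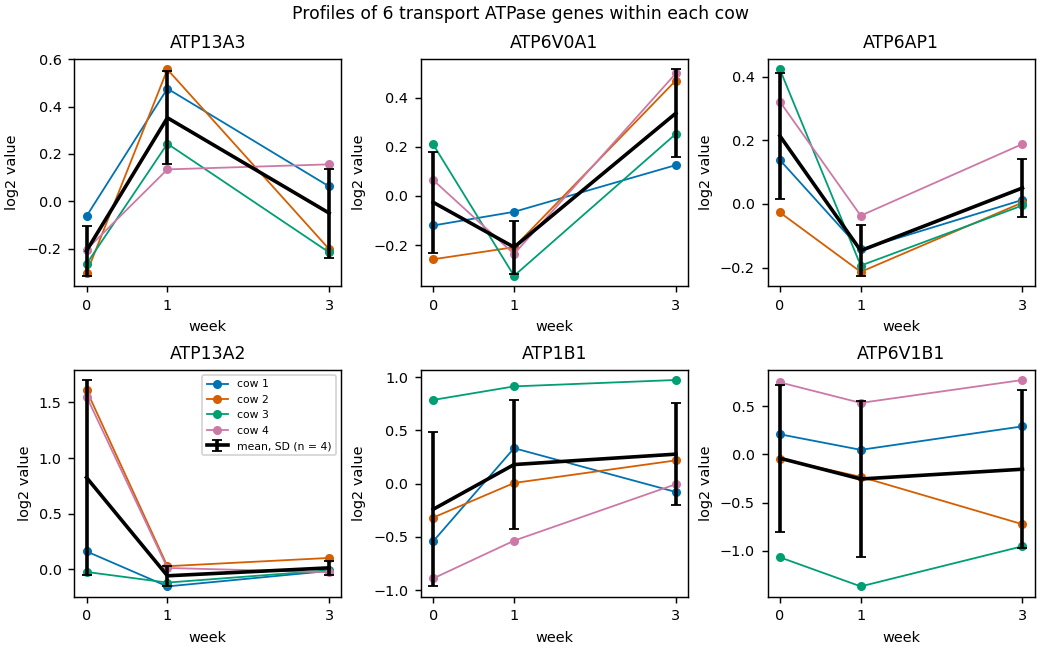
Log2 values of 6 genes at weeks 0, 1 and 3, with a coloured line per cow and the mean and SD of the 4 cows in black. ATP13A3 peaks at week 1 in cows 1 to 3, ATP6V0A1 is highest at week 3, and ATP6AP1 is lowest at week 1. ATP13A2 is high in 2 cows at week 0. The lines of ATP6V1B1 are set apart by cow, and for ATP1B1 cow 3 lies above the other cows, whose lines cross.

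In the V-ATPase, the proton pump of lysosomes, 19 genes were measured and their differences had no common sign. Of the 19, 10 were higher and 9 lower at week 1 than at week 0 (median 0.0077), 9 were higher and 10 lower at week 3 than at week 0 (median -0.0020), and 12 were higher and 7 lower at week 3 than at week 1 (median 0.028). Among the 9 V1 genes, 4 were higher at week 1 than at week 0, and among the 8 V0 genes 5 were.

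ATP6V0A1, an isoform of the V0 subunit that lines the proton path, stood highest at week 3. Its log2 values were -0.12, -0.26, 0.21 and 0.06 in cows 1 to 4 at week 0, -0.06, -0.21, -0.32 and -0.24 at week 1, and 0.13, 0.47, 0.25 and 0.50 at week 3. All 4 arrays of week 3 lay above all 4 of week 1, which was the case, in either direction, for 2 of the 35 genes and 3.24% of all genes. It averaged 0.34 ± 0.18 at week 3 and -0.21 ± 0.11 at week 1 (SD, n = 4 each). The difference was 0.54 ± 0.11 (SE) or 1.46-fold, with 0.19, 0.68, 0.58 and 0.73 in cows 1 to 4 (limma, adjusted p = 0.548; unadjusted p = 0.000622). Week 3 minus week 0 was 0.36 ± 0.11, higher in all 4 cows by 0.04 to 0.73 (adjusted p = 0.901). The second probe set of the gene gave 0.30 and 0.17 in these comparisons, and over the alternative settings the 2 differences stayed between 0.42 and 0.66 and between 0.20 and 0.47. Week 3 minus week 0 was 0.20 when the 3 arrays with raised control signals, named below, were left out.

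Markers of macrophages and of fibroblasts differed in the same direction as ATP6V0A1 between week 3 and week 1, without passing the test. Of 6 measured markers of macrophages and dendritic cells (CD68, CD14, CSF1R, AIF1, ITGAM and CD86), 5 were higher at week 3 than at week 1, and their median difference was 0.50. The median of these markers per array ranged from -0.39 to 0.23 at week 0, from -0.46 to 0.05 at week 1 and from -0.10 to 0.72 at week 3. Of 8 measured fibroblast markers, 8 were higher at week 3 than at week 1 (median 0.31). No marker passed the test, and the values hold no level that would show which markers are near 0. The part of such cells in the value of ATP6V0A1 was not tested, and in bulk tissue fewer cells of a type and less RNA per cell cannot be told apart.

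ATP6AP1, an accessory protein needed to assemble the V-ATPase, was lowest at week 1. The log2 values were 0.14, -0.03, 0.42 and 0.32 in cows 1 to 4 at week 0, -0.14, -0.21, -0.19 and -0.04 at week 1, and 0.01, 0.00, -0.00 and 0.19 at week 3. All arrays of week 1 lay below all arrays of week 0 and of week 3. The gene averaged -0.15 ± 0.08 at week 1 and 0.21 ± 0.20 at week 0 (SD, n = 4 each), a difference of -0.36 ± 0.09 (SE) or 1.28-fold lower, and the 4 cows gave -0.62 to -0.19 (limma, adjusted p = 0.697; unadjusted p = 0.00244). At week 3 it was higher than at week 1 by 0.20 ± 0.09, with a range over the cows of only 0.16 to 0.22 (adjusted p = 0.999). The first difference was -0.52 when the 3 arrays with raised control signals were left out, and the range over all settings was -0.52 to -0.28. Beside it, 8 of 10 measured markers of squamous epithelium were lower at week 1 than at week 0 (median -0.32), with array medians of -0.23 to 0.01 at week 1 and 0.06 to 0.21 at week 0. At week 3 against week 1, where ATP6AP1 was higher in all 4 cows, 4 of these markers were higher and 6 lower (median -0.015). Their part was not tested.

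The other accessory protein, ATP6AP2, also known as the prorenin receptor, varied mostly between cows with the probe set described. Cow 1 had 0.24, 0.31 and 0.27 at weeks 0, 1 and 3, while the other 9 arrays lay between -0.10 and 0.12. Cows took up 81.2% of its sum of squares and weeks 0.946%. Its differences were 0.03, 0.02 and -0.01 for week 1 against week 0, week 3 against week 0 and week 3 against week 1. The second probe set of the gene gave 0.08, -0.03 and -0.11.

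The catalytic V1 subunit ATP6V1A and its non-catalytic partner ATP6V1B2, which form the ring that splits ATP, showed similar week differences in 3 cows. ATP6V1A was at -0.33, -0.07, 0.10 and 0.04 at week 0, at -0.03, 0.17, 0.32 and 0.01 at week 1 and at -0.35, -0.01, -0.18 and 0.23 at week 3. ATP6V1B2 was at -0.28, -0.09, 0.00 and 0.10 at week 0, at 0.08, 0.14, 0.12 and -0.00 at week 1 and at -0.23, -0.11, -0.22 and 0.17 at week 3. In cows 1 to 3 both stood higher at week 1 than at either other week, and in cow 4 both stood lowest at week 1. Week 1 minus week 0 was 0.18 ± 0.13 for ATP6V1A and 0.15 ± 0.10 for ATP6V1B2 (SE), and week 3 minus week 1 was -0.20 ± 0.13 and -0.18 ± 0.10. None of these differences passed the test (limma, adjusted p of 0.763 and 0.999 for both genes). Of the 4 probe sets of ATP6V1A all had the same sign in both comparisons.

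ATP6V1B1, the isoform of the B subunit typical of acid-secreting kidney cells, varied more than any other of the 35 genes (SD 0.73) and almost wholly between cows. Cow 3 had -1.07, -1.37 and -0.95 at weeks 0, 1 and 3, and cow 4 had 0.75, 0.53 and 0.77. Cow 1 lay between 0.05 and 0.29, and cow 2 was at -0.05, -0.23 and -0.72. Cows took up 93.1% of its sum of squares and weeks 1.60%. Within cows, week 1 was lower than week 0 in all 4, at -0.30 to -0.16. The mean difference was -0.22 ± 0.52 (SE; limma, adjusted p = 0.836). With the cow as a block, which takes out the spread between cows, the SE was 0.14 (limma, adjusted p = 0.775).

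ATP6V1H, a regulatory V1 subunit, was high at week 0 in 3 cows. Its log2 values were 0.49, 0.46, -0.05 and 0.45 at week 0, 0.62, -0.53, -0.03 and -0.26 at week 1, and 0.03, -0.09, -0.22 and 0.14 at week 3. At week 3 it was lower than at week 0 in all 4 cows, at -0.55 to -0.17, with a mean difference of -0.37 ± 0.22 (SE; limma, adjusted p = 0.901). For week 1 minus week 0 the difference was -0.39 ± 0.22, with the opposite sign in cows 1 and 3, and leaving out 1 array or 1 cow gave -0.61 (without the week 1 array of cow 1) to -0.19 (without cow 2). Beside these values, 8 of 10 measured markers of squamous epithelium were lower than at week 0 both at week 1 (median -0.32) and at week 3 (median -0.18), and their part was not tested. ATP6V1G1, a stalk subunit, differed little but evenly, with 0.11 ± 0.05 for week 3 minus week 1 and 0.07 to 0.17 in the 4 cows.

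The V0 isoform ATP6V0A4, like ATP6V1B1 typical of the kidney, had a high mean at week 1 through 1 array. Its values were -0.09, -0.07, -0.02 and -0.12 at week 0, 0.10, 0.06, 1.19 and 0.04 at week 1, and -0.02, -0.06, 0.02 and 0.50 at week 3. Every array of week 1 lay above every array of week 0, but within cows 1, 2 and 4 the difference was only 0.19, 0.14 and 0.16. Week 1 minus week 0 was 0.42 ± 0.24 (SE; limma, adjusted p = 0.763), and 0.14 without the week 1 array of cow 3. ATP6V0D1, which joins the V0 ring to the central stalk, was lower at week 1 than at week 0 in all 4 cows, at -0.19 to -0.01, with a mean difference of -0.10 ± 0.05.

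**Figure D3:**
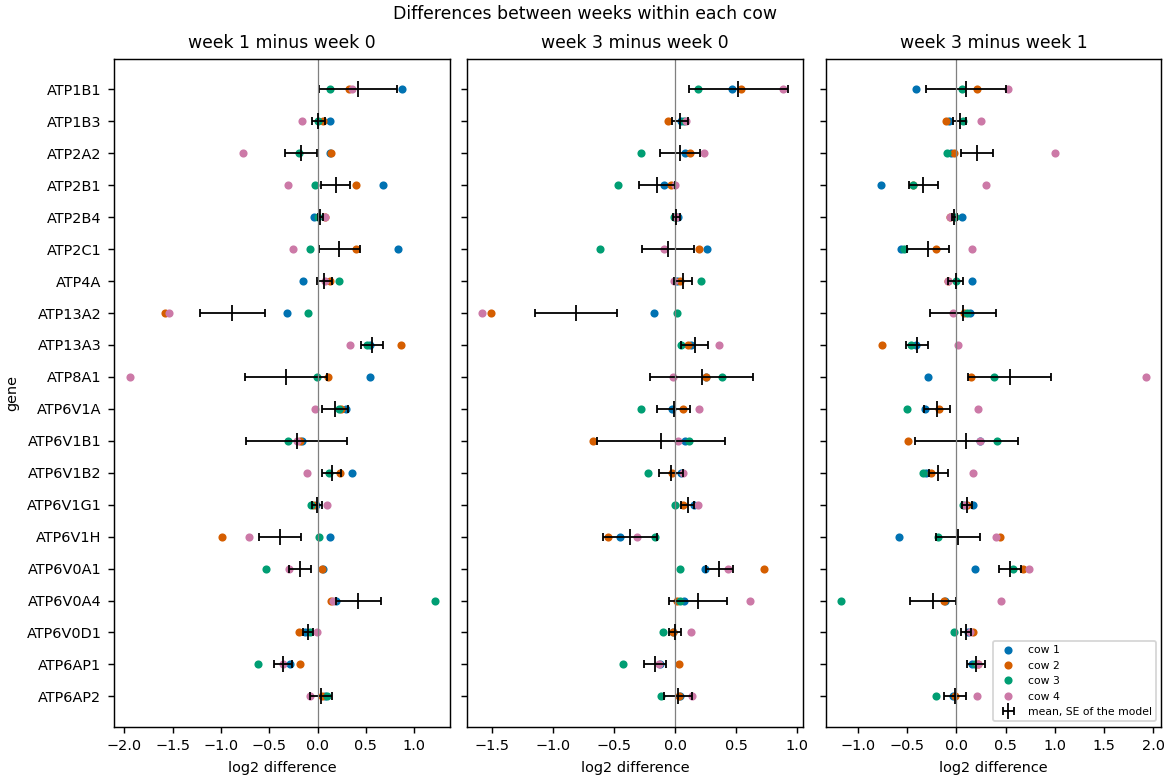
Log2 difference between weeks for 20 genes, with a coloured point per cow and a black bar for the mean and SE of the model. For ATP13A3 and ATP6AP1 (week 1 minus week 0) and ATP6V0A1 and ATP6AP1 (week 3 minus week 1) all 4 points lie on the same side of 0, while for ATP8A1, ATP2A2 and ATP6V0A4 a single cow lies far out.

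ATP1B1, the beta subunit that carries the Na/K-ATPase to the plasma membrane in most epithelia, was higher on grain in every cow. Its log2 values were -0.54, -0.32, 0.79 and -0.89 in cows 1 to 4 at week 0, 0.33, 0.01, 0.91 and -0.54 at week 1, and -0.08, 0.22, 0.97 and -0.01 at week 3. Cow 3 stood highest at every week and the weeks overlapped widely. Cows took up 76.3% of the sum of squares and weeks 15.2%. Within cows, week 3 exceeded week 0 by 0.46, 0.54, 0.19 and 0.88, and week 1 exceeded week 0 by 0.87, 0.32, 0.13 and 0.35.

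The difference of ATP1B1 was 0.52 ± 0.40 (SE) for week 3 minus week 0 and 0.42 ± 0.40 for week 1 minus week 0. With the cow as a block the SE was 0.15 in both comparisons. Its unadjusted p for week 3 was 0.227, or 0.00943 with the cow as a block, and limma's adjusted p was 0.901, or 0.548 with the block. Without the week 0 array of cow 3 the difference was 0.86, and without the week 3 array of that cow it was 0.29. These fits hold no cow term, so cow 3, the highest cow, then counts on 1 side of the comparison only. ATP1B3, the other widely expressed beta subunit, differed by 0.04 ± 0.07 and 0.01 ± 0.07 in the same comparisons. The nervous tissue form ATP1B2 and ATP1B4, a muscle member of the gene family, differed by at most 0.03.

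Of the calcium pumps ATP2B1, the most widely expressed plasma membrane pump, and ATP2C1, the calcium and manganese pump of the Golgi that keratinocytes need for cohesion in humans, both stood higher at week 1 in cows 1 and 2. ATP2B1 was at -0.17, -0.09, 0.12 and 0.11 at week 0, at 0.51, 0.31, 0.09 and -0.20 at week 1 and at -0.26, -0.13, -0.35 and 0.11 at week 3. Its week 1 minus week 0 was 0.19 ± 0.15 (SE). With the 3 arrays of raised control signals left out, all of them from cows 1 and 2, that difference was -0.05. Week 3 minus week 1 was -0.33 ± 0.15 (SE; limma, adjusted p = 0.999; unadjusted p = 0.048, or 0.0895 with the cow as a block), lower in cows 1 to 3 and higher by 0.31 in cow 4. The 2 other probe sets of ATP2B1 gave 0.15 and -0.06 in that comparison, so the sign depended on the probe set.

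ATP2C1 was at -0.58, -0.43, 0.35 and 0.28 at week 0, at 0.24, -0.03, 0.27 and 0.03 at week 1 and at -0.32, -0.24, -0.26 and 0.19 at week 3. On forage cows 1 and 2 lay below cows 3 and 4. Week 1 minus week 0 was 0.22 ± 0.21 (SE; limma, adjusted p = 0.763) and was -0.23 with the 3 arrays of raised control signals left out, 2 of which are the low arrays of week 0. In that setting week 3 minus week 0 was -0.48, against -0.06 ± 0.21 over all arrays.

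ATP2A2, the SERCA pump of epithelia and heart, lay between -0.14 and 0.31 on 11 arrays and at -0.70 on the week 1 array of cow 4. Week 1 minus week 0 was -0.17 ± 0.16, and the other 3 probe sets of the gene gave -0.06, -0.02 and -0.01. The muscle form ATP2A1 and the plasma membrane pumps ATP2B2 and ATP2B4 differed by at most 0.06 between weeks. ATP4A, the catalytic subunit of the gastric proton pump, differed by 0.07 ± 0.08 and 0.06 ± 0.08 (SE) in week 1 and week 3 against week 0.

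ATP8A1, a flippase for phosphatidylserine, had the widest range of the 35 genes, 2.52 on the log2 scale. Its values were 0.05, -0.28, -0.01 and 0.03 at week 0, 0.60, -0.18, -0.02 and -1.92 at week 1, and 0.31, -0.03, 0.37 and 0.01 at week 3. The low value in cow 4 at week 1 set the mean of that week, so that week 1 minus week 0 was -0.33 ± 0.42 and week 3 minus week 1 was 0.54 ± 0.42 (SE; limma, adjusted p of 0.763 and 0.999). ATP9B, a related pump of the Golgi, differed by -0.16 ± 0.23 and -0.06 ± 0.23 in week 1 and week 3 against week 0, and cows took up 62.7% of its sum of squares.

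Several genes did not vary beyond the pattern of the flattest probe sets. For ATP1B2, ATP1B4, ATP2B2, ATP2B4, ATP6V0D2 and ATP6V0E2 the value on each array lay within 0.05 of the median over the 25% of probe sets with the lowest SD. That holds for 6 of the 35 genes and for 13.7% of all genes, with a limit of 0.05 set after the values were seen. Differences of these 6 genes follow that common pattern. The 15 genes not chosen for a description of their own differed by -0.20 to 0.29 at week 1 and by -0.13 to 0.13 at week 3 against week 0, with a lowest unadjusted p of 0.122 over these comparisons. The 0.29 is that of ATP6V0A2, whose week 1 array of cow 1 stood at 1.24, and without cow 1 its difference was -0.031.

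The shares of the sum of squares over the 35 genes were close to those over all genes. Cows carry 3 of the 11 degrees of freedom of the design (27.3%) and weeks 2 (18.2%), so cows take the larger share even with no effect of either. The median shares were 30.5% between cows and 15.7% between weeks, beside 28.6% and 13.4% over all 9155 genes, and the median SD was 0.157, beside 0.159. The genes with most of their variation between weeks were ATP13A3 (72.4%), ATP6V0A1 (70.6%) and ATP6AP1 (61.5%), and those with most between cows were ATP6V1B1, ATP6AP2 and ATP1B1.

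**Figure D4:**
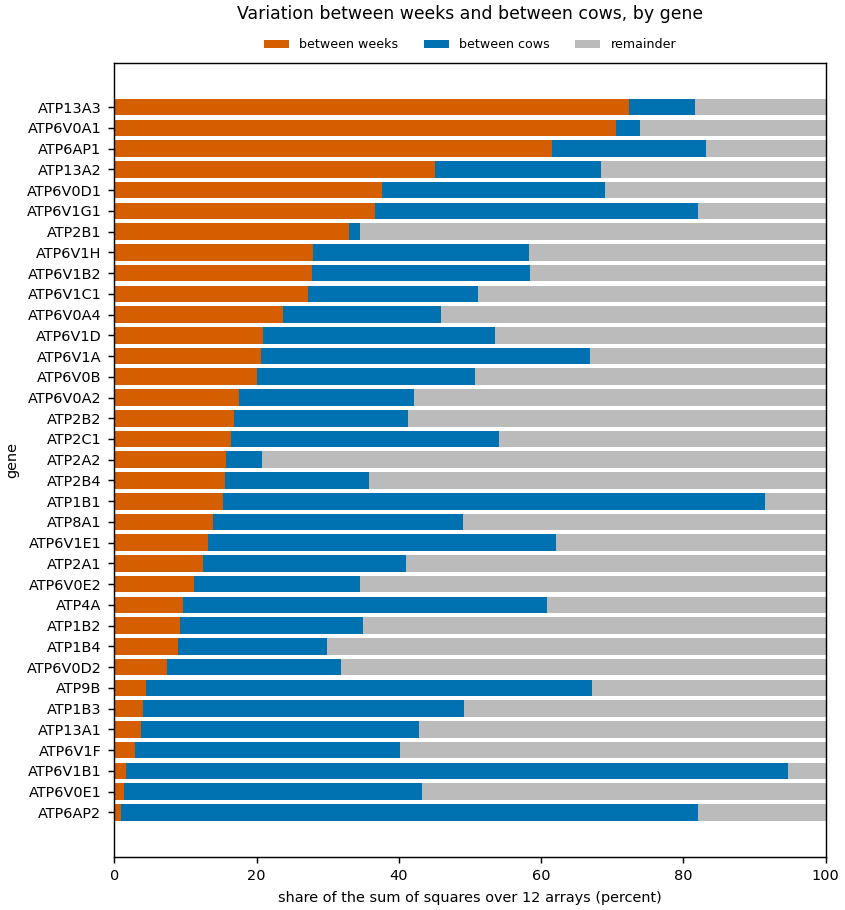
Share of each gene's sum of squares over the 12 arrays (percent) that lies between weeks (orange), between cows (blue) and in the remainder (grey), with genes ordered by the share between weeks. ATP13A3, ATP6V0A1 and ATP6AP1 lead with 61.5% to 72.4% between weeks, and ATP6V1B1 has 93.1% between cows.

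Of 49 listed partners and regulators of these pumps 25 were measured, and 0 passed limma's test in any comparison. At an unadjusted p under 0.05, 1 was higher and 1 lower at week 1 than at week 0, 3 were higher and 0 lower at week 3 than at week 0, and 3 were higher and 1 lower at week 3 than at week 1. The shares of all genes at that p were 3.76% higher and 2.85% lower, 3.13% and 1.89%, and 3.68% and 3.16% in these comparisons. PLN, phospholamban, which inhibits SERCA, was at -0.53 ± 0.16 (SE) for week 1 minus week 0 and lower in all 4 cows, and at 0.39 ± 0.16 for week 3 minus week 1. SLC31A1, the copper importer, was at 0.25 ± 0.10 and 0.23 ± 0.10 in week 1 and week 3 against week 0.

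NCOA7, which binds the V-ATPase, was at 1.45 ± 0.43 (SE) for week 3 minus week 1 and 0.99 ± 0.43 for week 3 minus week 0. FXYD5, a small protein that modulates the Na/K-ATPase, was at 0.83 ± 0.37 for week 3 minus week 1. Each was higher at week 3 in all 4 cows in these comparisons, by 0.37 to 2.42, 0.20 to 1.63 and 0.66 to 1.13. Their adjusted p-values were 0.715, 0.901 and 0.999 in limma.

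Over the series, 18 probe sets that read control RNA spiked into the hybridization mix averaged 0.48 to 0.72 on the week 0 and week 1 arrays of cow 1 and the week 0 array of cow 2, and -0.32 to 0.05 on the other 9. With these 3 arrays left out, 5 of the 35 genes had an unadjusted p under 0.05 in week 1 against week 0 (16.2% of all genes), 2 in week 3 against week 0 (6.53%) and 5 in week 3 against week 1 (13.7%). Without the week 1 array of cow 1 alone the first count was 10, where 32.9% of all genes did so. All 8 measured fibroblast markers were higher at week 3 than at week 1 (median 0.31). Their array medians lay between -0.51 and 0.19 at week 0, -0.31 and 0.14 at week 1, and 0.11 and 0.26 at week 3. Medians of the smooth muscle, endothelium, lymphocyte and nerve and glia lists differed by -0.14 to 0.10 between weeks. In single cows the smooth muscle median differed by -0.55 to 0.37 at week 1 and by -0.53 to 0.50 at week 3 against week 0. The part of these cell types in the values of the pumps was not tested.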

How the data were processed

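The labels' protocols describe biotin labelling of cRNA from 10 µg of total RNA and Affymetrix arrays, 1 per sample. The authors made the deposited log2 values with GCRMA, per the submitters' processing notes, and its version is not given there. Base 2 was assumed: read as natural logs, the largest spread of any probe set, 11.2, would span more than a 16-bit scanner can record. Each probe set has a median of 0 over the 12 arrays, so no filter on level was possible.

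All 24016 probe sets other than 112 controls were fitted in 1 model over the 12 arrays with limma 3.58.1 (lmFit and eBayes, no trend, two-sided, R 4.3.3), a mean per week and no cow term. The Benjamini-Hochberg adjustment ran over these 24016. Each SE of a difference is from this fit, and so includes the spread between cows, unless the block is named. The array annotation named 1 gene for 13292 probe sets, several for 86 and none for 10638, and all 35 symbols match the current gene table. The cows are the same at each week per the labels, and deviations from the weekly means had correlations of 0.303 to 0.690 for arrays of the same cow, against -0.435 to 0.0662 for different cows at different weeks.

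Genes described singly were the 5 of smallest unadjusted p in each comparison, that of largest SD in each family and a list of known epithelial pumps, 20 in all. Members, lists and this rule were chosen with earlier results of these data known. Alternatives were a cow block, quantile normalization, centred arrays, mean probe sets, array weights, a filter on flat probe sets and fits without arrays or cows. The fit was tested on simulated data. No sequences are shown.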

Additional observations from a re-analysis of the deposited data

Results flagged for a closer look

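In 13 of the 105 groups of 4 arrays (35 genes at 3 weeks) 1 array lay far from the other 3, by a gap that took up most of the group's range (Dixon's criterion). The criterion flags about 1 in 20 groups of normally distributed values. The share over all genes was not counted, so no excess in these genes can be read from the 13. The largest gaps were ATP6V0A2 in cow 1 at week 1, at 1.24, and ATP6V0A4 in cow 3 at week 1, at 1.19, followed by ATP2A2 in cow 4 at week 1, at -0.70. At week 0 the array apart was at -0.051 for ATP6V1H in cow 3, at -0.41 for ATP9B in cow 2, at 0.16 for ATP6V0A2 in cow 4 and at 0.081 for ATP13A1 in cow 3. At week 1 it was at -0.35 for ATP6V1E1 in cow 2. At week 3 cow 4 stood apart with ATP6V0A4 at 0.50, ATP6AP1 at 0.19 and ATP2C1 at 0.19, cow 3 with ATP4A at 0.21, and cow 2 with ATP13A2 at 0.10. No array held more than 3 of the 13.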

How the results depend on the processing

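With the cow as a block, 0 members were called in any comparison. For week 3 against week 0, 4 members in place of 2 had an unadjusted p under 0.05 (8.02% of all genes in place of 5.02%). The block changed no call. With array weights 10 members were called for week 1 against week 0, where 41.5% of all probe sets were. Of these members 7 were higher and 3 lower, and 5 were among the 6 that follow the flat pattern. In the F test 4 were called (25.4% of all probe sets), and in the other comparisons 0. At an unadjusted p under 0.05 array weights gave 14 for week 1 against week 0, where 38.7% of all genes did so. They gave 5 for week 3 against week 0 (14.8%) and 10 for week 3 against week 1 (28.9%). With the 3 arrays of raised control signals left out these counts were 5, 2 and 5 (16.2%, 6.53% and 13.7% of all genes). With the mean of a gene's probe sets the count for week 3 against week 0 was 1. The median difference for week 3 against week 0 was -0.0019 with quantile-normalized values and -0.00092 with array medians centred, against 0.015. The filter on flat probe sets kept 26 members and moved no count.

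Over the 16 fits without 1 array or 1 cow, 0 members were called in each comparison and in the F test. The counts at an unadjusted p under 0.05 ranged from 2 to 10, from 1 to 4 and from 1 to 5 in the 3 comparisons in the order above, and the medians from 0.0092 to 0.025, from 0.0096 to 0.022 and from -0.0050 to 0.032. For week 1 against week 0 the count was 10 without week 1 of cow 1, where 32.9% of all genes had such a p. It was 5 without week 1 of cow 4 (6.91%), cow 1 (16.4%) or cow 4 (5.97%). For week 3 against week 0 it was 4 without week 0 of cow 3 (5.83%). It was 1, beside 3.31% to 5.16%, without week 3 of any 1 cow, week 0 of cow 4, cow 2 or cow 4. For week 3 against week 1 it was 5 without week 1 of cow 4 (6.31%), week 3 of cow 4 (6.67%) or cow 4 itself (6.05%). Without cow 2 it was 1 (4.84%). Of the 60 differences of genes described singly, 34 kept their sign in every alternative run, among them those of ATP13A3, ATP6AP1 and ATP6V0A1. There were 23 alternatives, or 22 for the 9 differences of ATP2B4, ATP6V0D1 and ATP6V1G1, which the filter on flat probe sets removed. The other 26 turned at least once, among them week 1 against week 0 of ATP8A1 and ATP2B4, which were called with array weights. The cause of these shifts was not tested. Signal over background cannot be read from values without a level.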
